A study of Mus musculus with 18 samples.

Results

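The genes described here are 10 direct transcriptional targets of p53, listed by name: Cdkn1a, Phlda3, Bbc3, Bax, Trp53inp1, Mdm2, Ccng1, Sesn1, Zmat3 and Eda2r. All 10 were found among the 13043 genes measured, and 9 of them passed the filter on low counts and entered the tests. The tenth, Eda2r, had too few counts. Their transcripts were measured in 18 bulk libraries of brain macrophages from irradiation chimaeras, mice whose blood-forming system was destroyed by a lethal dose of radiation and replaced by donor marrow. Recipients were wild type and of the strain given as C57BL6/C. Donor marrow carried Ms4a3-Cre, which is active in granulocyte and monocyte progenitors, an R26-TdTomato reporter that Cre switches on for good, and Cx3cr1-gfp, in which GFP stands in the locus of a macrophage chemokine receptor. Cells were sorted 32 weeks after irradiation and transplantation.

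The groups were monocyte-derived microglia (GFP+ and TdTomato+, 4 libraries), microglia derived from haematopoietic stem cells without TdTomato (HSC-derived, GFP+, 4 libraries), monocyte-derived leptomeningeal macrophages (4 libraries), HSC-derived leptomeningeal macrophages (2 libraries) and host microglia, which carried no colour (4 libraries). Host microglia are the cells that were in the brain during irradiation, whereas donor-derived cells arose from marrow given afterwards. No unirradiated host microglia and no host leptomeningeal macrophages are among the groups analysed, so that radiation history, embryonic or marrow origin, the donor alleles and engraftment cannot be told apart in any comparison with host microglia. The labels give no age, and they do not say whether replicates are separate mice, so that p-values measure only the spread between these samples.

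p53 is a transcription factor that is broken down quickly in unstressed cells. Ionizing radiation breaks DNA, kinases such as ATM and CHK2 then stabilise p53, and p53 binds a pair of half-sites near its target genes. The targets act on the cell cycle (Cdkn1a), on survival signalling (Phlda3), on apoptosis (Bbc3, Bax, Trp53inp1), on p53 itself (Mdm2, Ccng1), and on redox and nutrient control (Sesn1). Zmat3 encodes an RNA-binding zinc finger protein, and Eda2r encodes a receptor of the TNF receptor family for ectodysplasin A2.

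Total counts of unique molecules per library ran from 154727 to 2440234, and 3 libraries had fewer than 350000, namely HSC-derived microglia replicates 3 and 4 and HSC-derived leptomeningeal macrophage replicate 2. Levels are given as CPM, counts relative to library size with TMM scaling, and 3 counts were worth 1.05 CPM in the deepest library and 23.1 CPM in the shallowest. Intervals on counts cover counting error only. The shallow libraries also stood apart in composition: ribosomal protein transcripts were 14.4% and 13.7% of counts in HSC-derived microglia replicates 3 and 4, against 8.77% and 8.99% in replicates 1 and 2. Leaving them out left 2 libraries of HSC-derived microglia and 1 of HSC-derived leptomeningeal macrophages, so that in those fits the spread of a lone library is assumed to be that of the other groups.

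The labelled cell types were checked on their markers. The summed level of 14 homeostatic microglia genes, among them P2ry12, Tmem119 and Sall1, was 18274 to 19337 CPM in monocyte-derived microglia, 15608 to 18545 CPM in HSC-derived microglia, 7251 to 8919 CPM in monocyte-derived leptomeningeal macrophages and 6193 to 7376 CPM in HSC-derived leptomeningeal macrophages, against 38039 to 40943 CPM in host microglia. None of these 14 genes was at 0 in any group, although Sall1, a transcription factor of resident microglia, averaged 31.4 ± 8.59 CPM in monocyte-derived microglia against 325.7 ± 10.7 CPM in host microglia (SD, n = 4 each). Border macrophage genes, led by Mrc1 and Pf4, summed to 8051 to 9398 CPM in monocyte-derived leptomeningeal macrophages and 10144 to 15387 CPM in HSC-derived ones, 3951 to 4235 CPM in monocyte-derived microglia and 3771 to 4270 CPM in HSC-derived microglia, against 829.6 to 995.4 CPM in host microglia, where Lyve1 and Cd209f were at 0.

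Promoter sequence is shown for the members because p53 binds near its target genes. Sites farther from a transcript start than the windows below were not searched. RefSeq windows of GRCm38.p6, from 250 bases before to 50 bases after a transcript start, were available for 8 of the 10 members. The p53 half-site consensus, searched on both strands, was found in 5 of the 12 member windows (Cdkn1a, Sesn1, Mdm2, Ccng1 and Bax), against 8.36% of 32851 windows of the same length. A pair of adjacent half-sites, 20 bases at most 1 base off the consensus, was in 2 member windows, against 0.0883% of all windows. These are the upstream start of Cdkn1a (chr17:29090729-29091028, plus strand) and Ccng1 (chr11:40755237-40755536, minus strand), shown 5′ to 3′ with the pair in capitals. With the transcript start at 0, the pair begins at -51 in Cdkn1a and at -195 in Ccng1.
Cdkn1a: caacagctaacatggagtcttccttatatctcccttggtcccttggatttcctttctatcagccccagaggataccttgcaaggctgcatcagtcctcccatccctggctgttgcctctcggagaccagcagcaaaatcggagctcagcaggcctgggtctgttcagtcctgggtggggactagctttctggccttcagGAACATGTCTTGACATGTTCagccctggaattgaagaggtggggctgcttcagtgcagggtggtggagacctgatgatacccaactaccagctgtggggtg
Ccng1: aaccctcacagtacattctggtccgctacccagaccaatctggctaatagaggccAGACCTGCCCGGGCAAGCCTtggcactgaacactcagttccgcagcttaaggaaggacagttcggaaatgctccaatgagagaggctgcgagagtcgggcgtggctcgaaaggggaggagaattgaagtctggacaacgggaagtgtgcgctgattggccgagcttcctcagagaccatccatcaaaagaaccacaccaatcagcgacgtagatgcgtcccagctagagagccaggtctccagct
The single half-sites of Mdm2 (chr10:117710925-117710954, minus strand), Bax (chr7:45467080-45467109, minus strand) and Sesn1 (chr10:41887256-41887285, plus strand) are shown in capitals with 10 bases on each side.
Mdm2: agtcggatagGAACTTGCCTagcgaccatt
Bax: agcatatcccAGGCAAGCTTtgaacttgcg
Sesn1: cttggccttcAAGCTTGTTTttgctggcct
The Cdkn1a pair lies 2841 bases before its downstream start, and the Sesn1 half-site lies at its second listed start. A match describes the letters in these windows and is not a measurement of binding. Members with a half-site moved in opposite directions between the groups: Sesn1 was higher and Cdkn1a, Mdm2, Ccng1 and Bax were lower in monocyte-derived than in host microglia.

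Relative to host microglia, the listed p53 targets were lower in monocyte-derived microglia, with Sesn1 as the exception. Of the 10 members, 8 fell, 1 rose and Eda2r was not tested, and the libraries of the groups did not overlap for any of the 10. By edgeR's quasi-likelihood test with Benjamini-Hochberg adjustment over all genes and a threshold of 0.05, 30.2% of the 10597 tested genes were called in this comparison, 15.1% higher and 15.1% lower. Groups did not overlap for 38.4% of tested genes. Phlda3 passed the low-count filter through host libraries alone and Zmat3 through them and 1 donor library, so that their presence among the tested members depends on the host level. The median log2 fold change of the 9 tested members was -1.32, beside 0.014 for all tested genes. Because the members were listed with earlier results of these data known, this median describes the list and not p53 targets at large.

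In HSC-derived microglia against host microglia, 5 members fell (Cdkn1a, Phlda3, Bbc3, Ccng1 and Bax) and Sesn1 rose, where 13.1% of tested genes were lower and 16.3% higher (29.4% in either direction). Libraries did not overlap for 7 of the 10 members and for 27.1% of tested genes. Without the shallow libraries, 6 fell and 1 rose. In monocyte-derived leptomeningeal macrophages against host microglia, 8 members fell and Sesn1 rose, where 22.5% of genes were lower and 24.1% higher (46.6% in either direction); libraries did not overlap for all 10 members and for 45.8% of tested genes. In HSC-derived leptomeningeal macrophages against host microglia, 6 members fell (Cdkn1a, Phlda3, Bbc3, Mdm2, Ccng1 and Bax) and none rose, where 15.3% of genes were lower and 18.3% higher (33.6% in either direction); libraries did not overlap for all 10 members and for 56.1% of tested genes. Without the shallow library, Mdm2 no longer passed and 5 fell. These comparisons share the 4 host libraries, and the last 2 also differ in anatomical compartment.

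**Figure D1:**
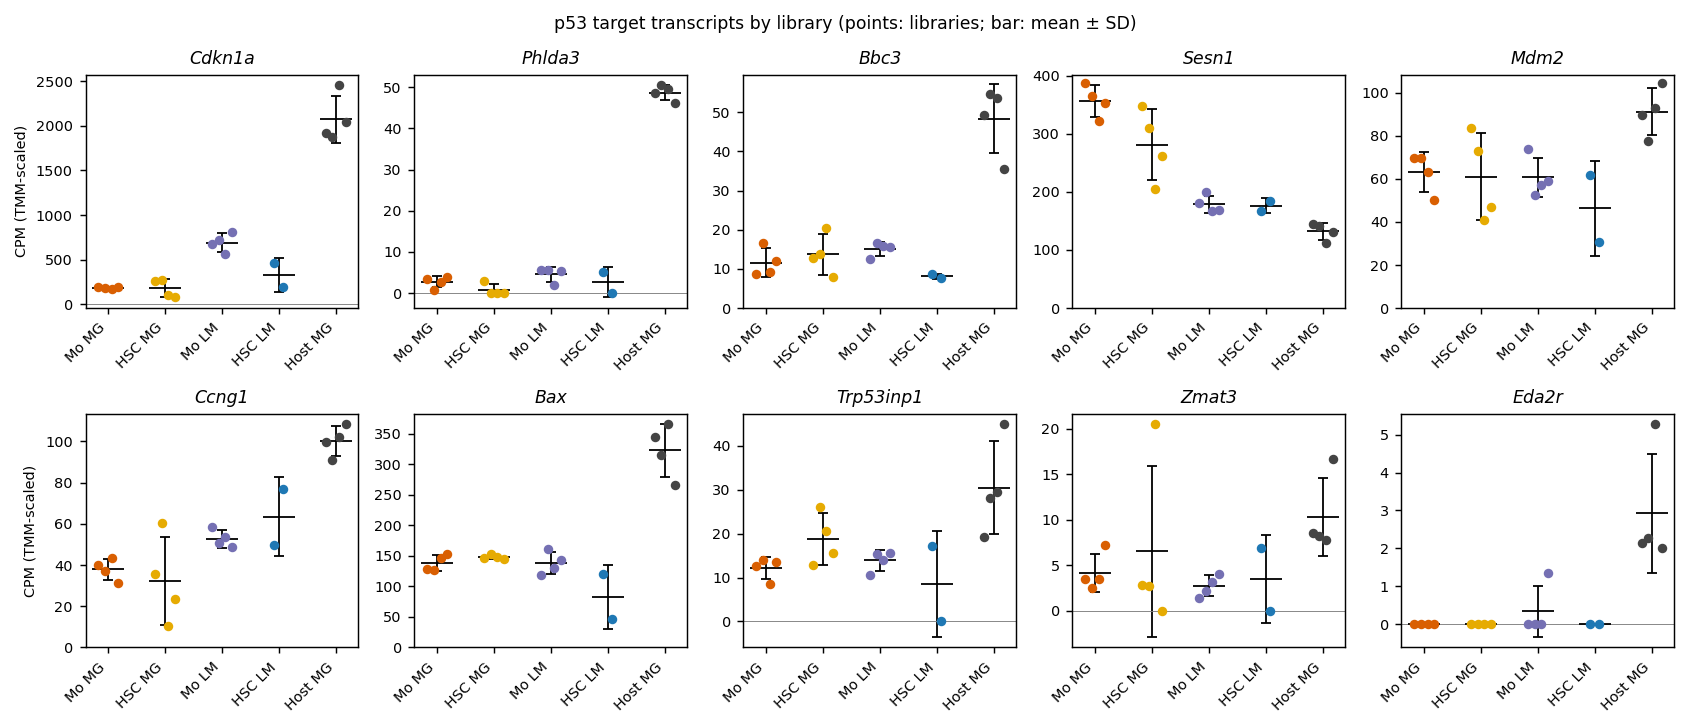
Level of each p53 target in CPM (TMM-scaled, linear axis) in every library, by group; points are libraries and bars are the mean ± SD. Host microglia (right, grey) have the highest mean for 9 genes, with Cdkn1a between 1876 and 2457 CPM, and the lowest mean for Sesn1, between 111.3 and 143.9 CPM; MG, microglia; LM, leptomeningeal macrophages; Mo, monocyte-derived.

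Cdkn1a encodes p21, an inhibitor of cyclin-dependent kinases that arrests the cell cycle after DNA damage. It measured 190.8, 180.4, 173.8 and 197.1 CPM in monocyte-derived microglia and 263.5, 273.5, 102.5 and 78.3 CPM in HSC-derived microglia, against 1921, 1876, 2457 and 2045 CPM in host microglia. Every host library was above every donor-derived library. The level was 11.2-fold lower in monocyte-derived than in host microglia (log2 fold change -3.48 ± 0.286 SE, adjusted p = 3.98e-09, edgeR), and the log2 fold change was -3.42 ± 0.295 in HSC-derived microglia (adjusted p = 1.27e-08). Without the shallow libraries, which held the lower values of the HSC-derived group, the contrast of HSC-derived with host microglia gave -2.95. In bulk libraries, fewer cells that express a gene and less RNA per cell cannot be told apart, here or in any result below.

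Mean levels of Cdkn1a in leptomeningeal macrophages lay between those of donor-derived and host microglia. It measured 672.4, 724.8, 558.6 and 809.7 CPM in monocyte-derived and 460.3 and 192.6 CPM in HSC-derived leptomeningeal macrophages, all below the host microglia libraries. Monocyte-derived leptomeningeal macrophages were above monocyte-derived microglia in every library, by 1.90 ± 0.272 on the log2 scale (adjusted p = 1.22e-05, edgeR), and below host microglia by a log2 fold change of -1.59 ± 0.263 (adjusted p = 3.71e-05). The order of means was therefore host microglia, monocyte-derived leptomeningeal macrophages, HSC-derived leptomeningeal macrophages, monocyte-derived microglia and HSC-derived microglia, and the last 3 overlapped with their neighbours. HSC-derived leptomeningeal macrophages over HSC-derived microglia gave 0.86 ± 0.352 (adjusted p = 0.143). Without the shallow libraries it was 0.79, a value that sets 1 library against 2.

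Phlda3 encodes a small pleckstrin-homology protein that competes with the kinase AKT for membrane lipids and so restrains it. It measured 3.46, 0.828, 2.80 and 3.99 CPM in monocyte-derived microglia (1 to 6 counts a library), against 48.7, 50.5, 49.5 and 46.2 CPM in host microglia (68 to 141 counts). Host libraries lay close together and far above all 14 donor-derived libraries. The log2 fold change was -4.06 ± 0.303 (adjusted p = 3.99e-13, edgeR). HSC-derived microglia held 2 counts in all, in replicate 1, so that the host level was higher by a count ratio of 46.2 (95% interval 12.7 to 382.6). Monocyte-derived leptomeningeal macrophages measured 5.62, 5.49, 1.91 and 5.38 CPM (log2 fold change against host microglia -3.42 ± 0.282, adjusted p = 1.96e-12). HSC-derived leptomeningeal macrophages held 3 counts, a host-to-donor ratio of 11.6 (95% interval 3.95 to 56.6).

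The apoptotic targets also had their highest means in host microglia, and their log2 differences between donor-derived and host microglia were smaller than those of Cdkn1a and Phlda3. Bbc3 encodes PUMA, a BH3-only protein that neutralises anti-apoptotic BCL2 proteins. It measured 8.65, 16.6, 9.11 and 12 CPM in monocyte-derived microglia and 12.8, 13.7, 20.5 and 7.83 CPM in HSC-derived microglia, against 49.4, 54.6, 53.7 and 35.5 CPM in host microglia. Again every host library was the higher. The level was 4.29-fold lower in monocyte-derived than in host microglia (log2 fold change -2.10 ± 0.215, adjusted p = 9.2e-10, edgeR). HSC-derived over host microglia gave -1.87 with the shallow libraries and without them. In leptomeningeal macrophages Bbc3 measured 12.6, 16.5, 15.9 and 15.5 CPM in the monocyte-derived group and 8.59 and 7.70 CPM in the HSC-derived group, the last value from 1 count. The monocyte-derived group gave a log2 fold change of -1.69 against host microglia, beside -1.59 for Cdkn1a.

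Bax encodes the effector that opens pores in the outer mitochondrial membrane. It measured 128.5, 126.6, 146.4 and 153.2 CPM in monocyte-derived microglia and 145.9, 152.5, 148.6 and 144.8 CPM in HSC-derived microglia, against 345.0, 314.7, 365.5 and 265.9 CPM in host microglia. The donor-derived microglia libraries of both origins lay within a narrow band below the host range, the 2 shallow ones included. The log2 fold change was -1.22 ± 0.146 in monocyte-derived microglia (adjusted p = 2.82e-08, edgeR) and -1.12 ± 0.161 in HSC-derived microglia (adjusted p = 1.17e-06), and -1.11 there without the shallow libraries. Bax averaged 138.6 ± 18.1 CPM in monocyte-derived leptomeningeal macrophages (n = 4) and measured 120.2 and 46.2 CPM in HSC-derived ones, the last in the shallow library. HSC-derived leptomeningeal macrophages over host microglia gave -1.70 on the log2 scale, and -1.42 without that library.

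Trp53inp1 encodes a stress protein that takes part in apoptosis and autophagy. It measured 12.7, 14.1, 8.41 and 13.6 CPM in monocyte-derived microglia and 12.8, 26.1, 20.5 and 15.7 CPM in HSC-derived microglia, against 19.3, 28.2, 29.5 and 44.9 CPM in host microglia. Monocyte-derived libraries did not overlap with host libraries, whereas HSC-derived ones did. The log2 fold change passed in monocyte-derived microglia (-1.32 ± 0.26, adjusted p = 0.00014, edgeR) and did not in HSC-derived microglia (-0.67 ± 0.315, adjusted p = 0.108). The difference between these origins was itself not called (-0.65 ± 0.364, adjusted p = 0.4).

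Mdm2 and Ccng1 belong to the feedback on p53. Mdm2 encodes the ubiquitin ligase that marks p53 for degradation. It measured 69.7, 69.5, 63.1 and 50.3 CPM in monocyte-derived microglia and 83.6, 72.8, 41.0 and 47.0 CPM in HSC-derived microglia, against 89.5, 77.8, 93.0 and 104.5 CPM in host microglia. Of the 9 tested members it had the smallest difference from host microglia in monocyte-derived microglia, with no overlap between libraries (1.44-fold lower, log2 fold change -0.52 ± 0.161, adjusted p = 0.0127, edgeR). That call was lost without host replicate 4 (adjusted p = 0.0575) and without monocyte-derived replicate 4 (adjusted p = 0.0697), and after thinning all libraries to the depth of the shallowest the value was 0.04 (adjusted p = 0.953). In HSC-derived microglia it did not pass (-0.43 ± 0.19, adjusted p = 0.0859).

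In leptomeningeal macrophages Mdm2 measured 73.8, 52.7, 57.4 and 59.2 CPM in the monocyte-derived group (log2 fold change against host microglia -0.57 ± 0.163, adjusted p = 0.00401, edgeR, lost after thinning with adjusted p = 0.102) and 61.8 and 30.8 CPM in the HSC-derived group (-0.74 ± 0.281, adjusted p = 0.0401). The HSC-derived call was lost under 10 alternatives, among them leaving out either library of that group (adjusted p = 0.0525 without replicate 1 and 0.191 without replicate 2).

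Ccng1 encodes cyclin G1, which recruits protein phosphatase 2A to MDM2. It measured 39.8, 37.2, 43.4 and 31.1 CPM in monocyte-derived microglia and 35.4, 60.5, 10.2 and 23.5 CPM in HSC-derived microglia, against 99.5, 90.9, 102.2 and 108.5 CPM in host microglia. Every donor-derived library was below every host library. The log2 fold change was -1.39 ± 0.178 in monocyte-derived microglia (adjusted p = 9.79e-08, edgeR) and -1.35 ± 0.219 in HSC-derived microglia (adjusted p = 9.26e-06), where it was -1.06 without the shallow libraries. Leptomeningeal macrophages measured 58.3, 50.5, 53.6 and 48.5 CPM in the monocyte-derived group and 49.8 and 77.0 CPM in the HSC-derived group, also below host microglia, with log2 fold changes of -0.92 ± 0.172 (adjusted p = 3.1e-05) and -0.83 ± 0.296 (adjusted p = 0.0293). The last call was lost without HSC-derived leptomeningeal replicate 1 (-0.48, adjusted p = 0.515) and when all libraries were thinned to the depth of the shallowest (-0.00, adjusted p = 1.0). Among cyclin G and I genes, Ccng2 did not pass in monocyte-derived microglia, with 83.6 ± 1.96 CPM against 95.4 ± 7.09 CPM in host microglia. It did not pass in HSC-derived microglia either (-0.39 ± 0.188, adjusted p = 0.115, edgeR). Ccng2 was lower than in host microglia in monocyte-derived (-1.13 ± 0.169, adjusted p = 7.79e-07) and HSC-derived leptomeningeal macrophages (-2.03 ± 0.342, adjusted p = 1.27e-05). Ccni fell in monocyte-derived microglia (-0.70 ± 0.132, adjusted p = 8.15e-05).

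Sesn1 moved against the other members. It encodes a sestrin, a stress protein that restrains the growth kinase complex mTORC1 and limits oxidative damage, and it is also a target of FOXO factors. It measured 387.9, 364.2, 322.3 and 352.8 CPM in monocyte-derived microglia and 347.1, 310.6, 205.0 and 262.2 CPM in HSC-derived microglia, against 143.9, 141.9, 111.3 and 131.3 CPM in host microglia. Every donor-derived library was higher than every host library. The level was 2.71-fold higher in monocyte-derived than in host microglia (log2 fold change 1.44 ± 0.141, adjusted p = 3.23e-10, edgeR) and the log2 fold change was 1.14 ± 0.148 in HSC-derived microglia (adjusted p = 2.13e-07), or 1.32 without the shallow libraries.

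Sesn1 was nearer to the host level in leptomeningeal macrophages. It measured 179.9, 198.8, 166.4 and 168.9 CPM in the monocyte-derived group and 166.6 and 184.9 CPM in the HSC-derived group, still without overlap with host libraries. The log2 fold change against host microglia was 0.43 ± 0.142 in the monocyte-derived group (adjusted p = 0.0118, edgeR), a call lost without host replicate 3 (adjusted p = 0.0623) and after thinning (0.02, adjusted p = 0.966), and 0.39 ± 0.207 in the HSC-derived group (adjusted p = 0.148). Leptomeningeal macrophages were lower than microglia within each origin, with log2 fold changes of -1.0 ± 0.14 for monocyte-derived cells (adjusted p = 6.34e-07) and -0.75 ± 0.212 for HSC-derived cells (adjusted p = 0.0191). The HSC-derived difference was lost without HSC-derived microglia replicate 1 (adjusted p = 0.0707) or HSC-derived leptomeningeal replicate 1 (adjusted p = 0.21), after thinning (-0.64, adjusted p = 0.153) and when only these groups were fitted (-0.66, adjusted p = 0.347). Without the shallow libraries it was -0.97, with 1 library against 2. The annotation places 9930024M15Rik on the same strand overlapping Sesn1, and that gene averaged 4.96 ± 3.08 CPM in monocyte-derived microglia against 1.56 ± 0.39 CPM in host microglia.

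Sesn2, another sestrin gene, moved the other way. It measured 18.4, 14.1, 10.5 and 11.2 CPM in monocyte-derived microglia, against 48.0, 47.3, 59.0 and 55.6 CPM in host microglia, without overlap. Its log2 fold change was -1.93 ± 0.221 (adjusted p = 1.07e-08, edgeR), and it fell in the other donor-derived groups too, with log2 fold changes of -2.47, -1.50 and -2.24 in HSC-derived microglia, monocyte-derived leptomeningeal and HSC-derived leptomeningeal macrophages. Sesn3 averaged 5.56 ± 1.14 CPM in monocyte-derived and 2.86 ± 0.493 CPM in host microglia and was not called (adjusted p = 0.118), while it rose in monocyte-derived leptomeningeal macrophages (1.66 ± 0.449, adjusted p = 0.00261).

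**Figure D2:**
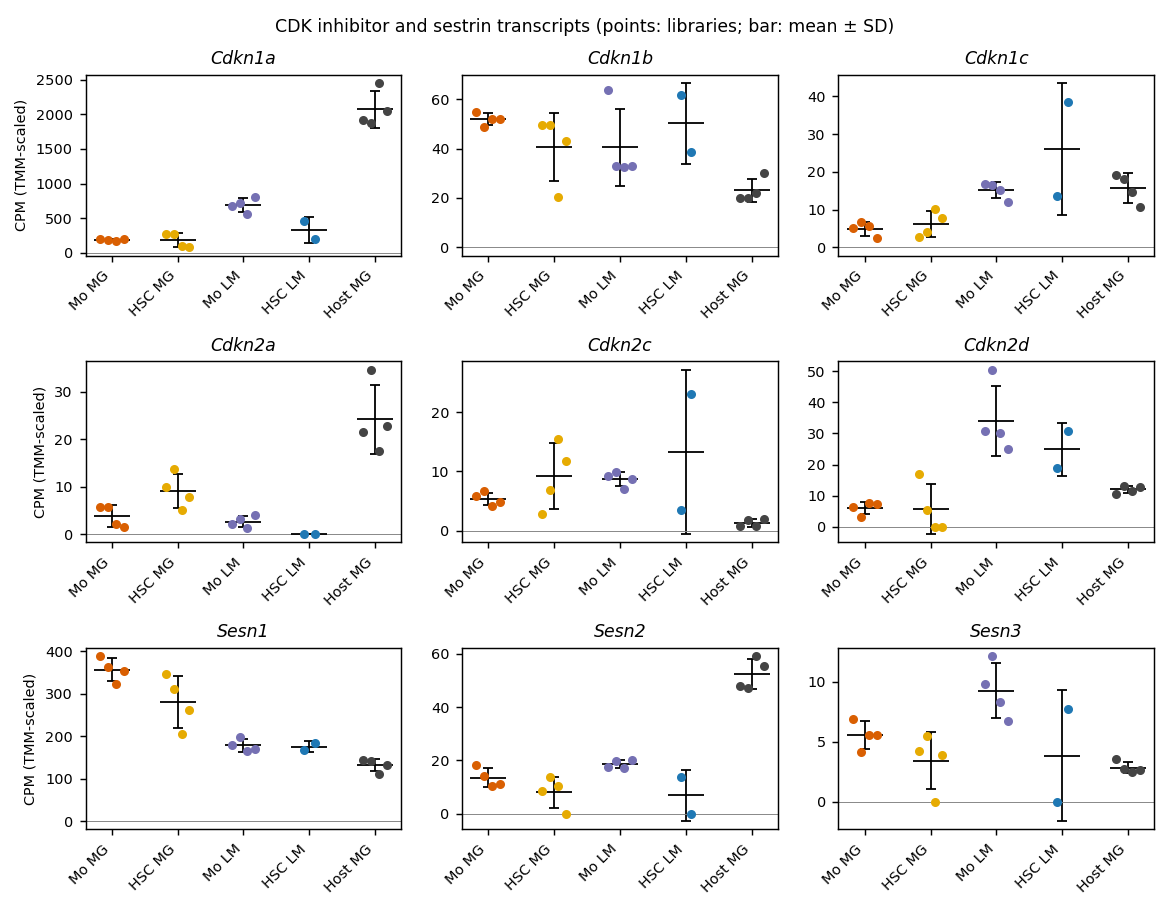
Levels in CPM (TMM-scaled, linear axis) of inhibitors of cyclin-dependent kinases and of sestrins in every library; points are libraries and bars are the mean ± SD. Cdkn1a, Cdkn2a and Sesn2 are highest in host microglia, at means of 2075, 24.1 and 52.5 CPM, while Cdkn1b, Cdkn2c and Sesn1 are lowest there, at 23.1, 1.31 and 132.1 CPM; MG, microglia; LM, leptomeningeal macrophages; Mo, monocyte-derived.

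Zmat3 and Eda2r were measured at low depth. Zmat3 measured 3.46, 2.48, 3.50 and 7.18 CPM in monocyte-derived microglia, against 8.59, 8.19, 7.72 and 16.7 CPM in host microglia, which rest on 3 to 9 and 12 to 25 counts a library. The log2 fold change of -1.27 ± 0.473 passed (adjusted p = 0.0389, edgeR) but was lost without any single host library (adjusted p = 0.056 to 0.204) and without monocyte-derived replicate 1, 2 or 3 (adjusted p = 0.0973 to 0.11), and by DESeq2 (adjusted p = 0.0569). Monocyte-derived leptomeningeal macrophages measured 1.41, 2.20, 3.19 and 4.04 CPM and were lower than host microglia (-1.83 ± 0.51, adjusted p = 0.00341). In HSC-derived cells Zmat3 rested on 8 and 4 counts in microglia and leptomeningeal macrophages, and was not called.

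Eda2r was counted 26 times in host microglia, as 3, 5, 15 and 3 in the 4 libraries. It had no count in any of the 8 donor-derived microglia libraries or in HSC-derived leptomeningeal macrophages, and 2 counts in monocyte-derived leptomeningeal replicate 4. With 3 counts over a group as the floor, the level was at least 6.14-fold lower in monocyte-derived and at least 2.06-fold lower in HSC-derived than in host microglia. HSC-derived leptomeningeal macrophages were too shallow for a bound. When no low-count filter was applied, the difference passed in monocyte-derived microglia (adjusted p = 0.00174, edgeR), HSC-derived microglia (adjusted p = 0.0394) and monocyte-derived leptomeningeal macrophages (adjusted p = 0.0141).

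**Figure D3:**
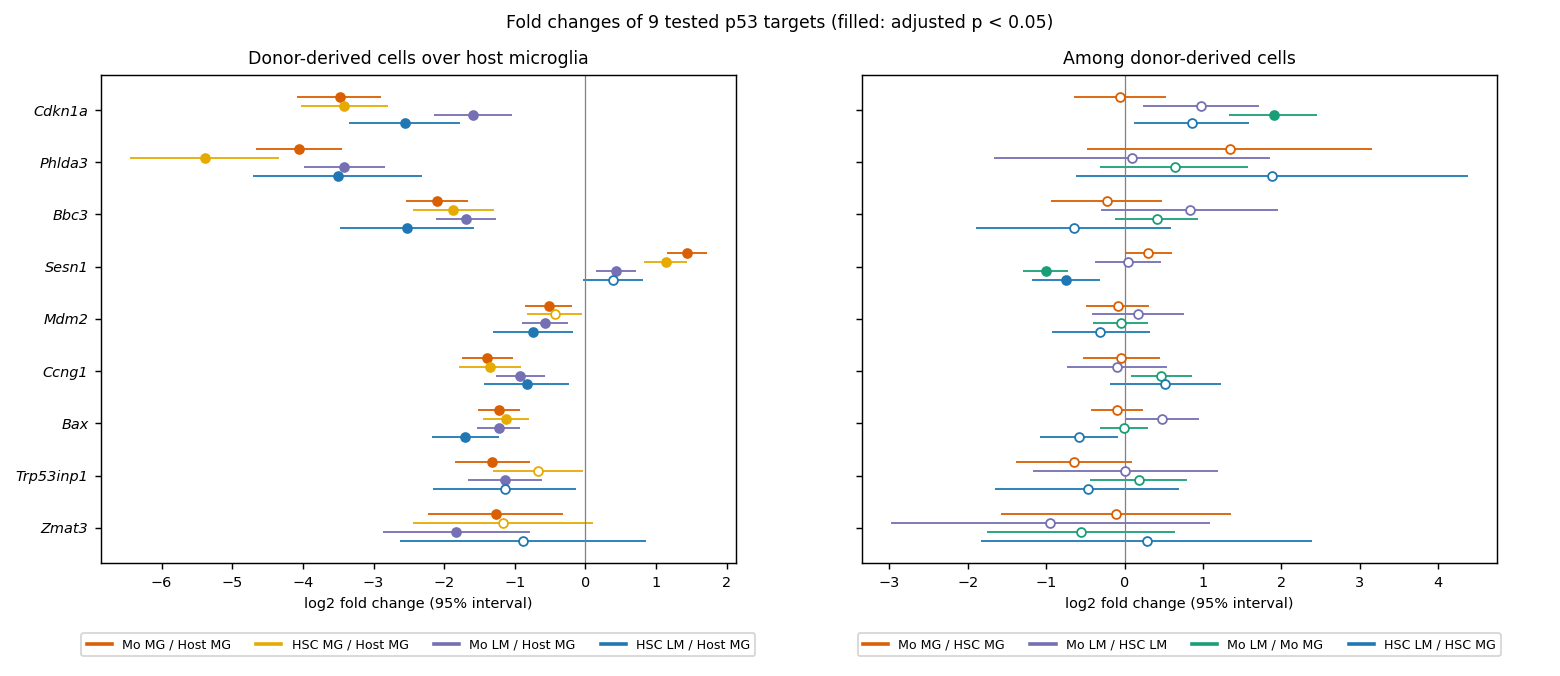
Log2 fold changes with 95% intervals of the 9 tested p53 targets, for donor-derived cells over host microglia (left) and among donor-derived cells (right); filled points passed the adjusted threshold of 0.05 and open points did not. On the left Sesn1 alone lies right of 0; on the right the filled points are Cdkn1a (1.90) and Sesn1 (-1.0) for monocyte-derived leptomeningeal macrophages over microglia and Sesn1 (-0.75) for HSC-derived ones. MG, microglia; LM, leptomeningeal macrophages; Mo, monocyte-derived.

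Origin of the donor-derived cells made no called difference to any member. Few of all tested genes were called by origin, as the shares below show, so that 0 called members is not particular to the list. Monocyte-derived over HSC-derived microglia gave 0 called members by edgeR, and 0 by DESeq2 and limma-voom, where 1.89% of genes were called (0.123% higher and 1.76% lower) and libraries did not overlap for 0 members and 10.6% of genes. Sesn1 had an unadjusted p under 0.05 (0.30 ± 0.145, 95% interval 0.01 to 0.60, adjusted p = 0.304). For Cdkn1a the log2 difference was -0.06 with a 95% interval of -0.65 to 0.53, and -0.52 without the shallow libraries (adjusted p = 0.183). It was for Bax -0.10 (-0.43 to 0.24), for Mdm2 -0.09 (-0.49 to 0.31), and for Phlda3, which rests on few counts, 1.34 (-0.48 to 3.16).

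Monocyte-derived over HSC-derived leptomeningeal macrophages also gave 0 called members by edgeR, DESeq2 and limma-voom, where 0.302% of genes were called (0.16% higher and 0.142% lower) and libraries did not overlap for 2 members and 26.7% of genes. Cdkn1a had an unadjusted p under 0.05 (0.98 ± 0.353, 95% interval 0.24 to 1.71, adjusted p = 0.322), and all 4 monocyte-derived libraries were above both HSC-derived ones. Without the shallow library it was 0.58 (adjusted p = 0.233). The interaction of origin with compartment gave 0 called members by the same 3 tools, where 0.0566% of genes were called; Cdkn1a had an unadjusted p under 0.05 there (1.04 ± 0.45, adjusted p = 0.574).

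Between compartments, with all libraries, Cdkn1a and Sesn1 were called in monocyte-derived cells, and Sesn1 alone in HSC-derived cells. Such calls were also common among all genes, as the shares below show. Cdkn1a was higher in HSC-derived leptomeningeal macrophages too (0.86 ± 0.352) but did not pass. Its interaction of origin with compartment was not called, so that a difference between the origins was not shown. In monocyte-derived leptomeningeal macrophages over monocyte-derived microglia, 1 member rose and 1 fell, as given above, where 35.3% of genes were called (19% higher, 16.3% lower) and libraries did not overlap for 3 members and 37.2% of genes. Ccng1 was just outside the threshold (0.47 ± 0.191, adjusted p = 0.0532) and passed when the shallow libraries were left out (adjusted p = 0.0115). In HSC-derived leptomeningeal macrophages over HSC-derived microglia, Sesn1 was the 1 member that passed, where 9.72% of genes were called (5.75% higher, 3.97% lower) and libraries did not overlap for 2 members and 21.4% of genes. Transcripts of some other cells moved with these comparisons. The summed level of 8 of 10 listed neutrophil markers was 1200 to 2783 CPM in monocyte-derived leptomeningeal macrophages, against 119.9 to 186.8 CPM in monocyte-derived microglia, with none of the 8 at 0 in either group. T and NK cell markers (12 of 12) summed to 483.2 to 950.3 CPM in monocyte-derived leptomeningeal macrophages, against 119.9 to 166.8 CPM in monocyte-derived microglia, with none at 0 in either group. Fibroblast and mural cell markers (3 of 9) summed to 24.2 to 40.2 CPM in monocyte-derived leptomeningeal macrophages, against 0 to 0.701 CPM in monocyte-derived microglia, where Dcn and Pdgfrb were at 0. In HSC-derived leptomeningeal macrophages, T and NK cell markers summed to 254.2 and 539.4 CPM, against 0 to 167.7 CPM in HSC-derived microglia, where Cd3g and Klrb1c were at 0. Erythroid markers (4 of 6, none at 0) summed to 443.2 and 4267 CPM, against 43.1 to 942.3 CPM, with overlap. Neutrophil markers summed to 49.8 and 100.1 CPM, against 62.6 to 126.4 CPM, also with overlap. The part of these transcripts in the Cdkn1a and Sesn1 differences was not tested.

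Levels of transcripts listed as markers of other cells also differed between donor-derived and host microglia. The summed level of 8 of 8 choroid plexus epithelium markers was 7.01 to 162.0 CPM in monocyte-derived microglia (Folr1, Kl and Kcnj13 at 0) and 15.1 to 483.2 CPM in HSC-derived microglia (Kl, Clic6 and Kcnj13 at 0), against 2081 to 3531 CPM in host microglia, where none was at 0. Of these, Ttr averaged 46.3 ± 73.8 CPM in monocyte-derived and 2516 ± 567.2 CPM in host microglia. Astrocyte markers, 6 of 8 in the table with none at 0, summed to 29.4 to 33.1 CPM in monocyte-derived microglia and 165.4 to 216.0 CPM in host microglia. Slc1a3 made up most of the host sum, at 20.9 ± 2.59 and 187.0 ± 21.7 CPM in these groups. Aldh1l1 averaged 0.726 ± 0.113 and 2.77 ± 1.1 CPM, and Slc1a2 averaged 2.2 ± 0.801 and 2.34 ± 1.2 CPM, in the same order. T and NK cell markers summed to 119.9 to 166.8 CPM in monocyte-derived and 30.1 to 54.2 CPM in host microglia, with none of 12 at 0. The part of these transcripts in the member differences was not tested.

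Other p53 targets held both directions. Like the members, they had been listed with earlier results of these data known. Of 60 other listed p53 targets, 53 were measured and 47 tested. In monocyte-derived over host microglia, 16 fell and 6 rose, with a median log2 fold change of -0.20, beside 0.014 for all genes. In HSC-derived microglia 12 fell and 4 rose, in monocyte-derived leptomeningeal macrophages 18 fell and 11 rose, and in HSC-derived leptomeningeal macrophages 11 fell and 10 rose, all against host microglia. Without the shallow libraries the counts were 18 and 9, 11 and 6, 20 and 14, and 9 and 10 in the same order. Over all tested genes, the called shares over host microglia were 15.1% lower and 15.1% higher in monocyte-derived microglia, 13.1% and 16.3% in HSC-derived microglia, 22.5% and 24.1% in monocyte-derived and 15.3% and 18.3% in HSC-derived leptomeningeal macrophages.

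Among targets of metabolism, redox control and autophagy, 4 of 11 tested fell and 2 rose in monocyte-derived microglia, where 15.1% of all tested genes were called in each direction. Ephx1, a detoxifying epoxide hydrolase, averaged 20.4 ± 3.13 CPM against 62.6 ± 3.6 CPM in host microglia (log2 fold change -1.62 ± 0.186, adjusted p = 1.19e-08, edgeR). Prkab1, a subunit of the energy sensor AMPK, fell by 1.05 ± 0.152 on the log2 scale (adjusted p = 1.04e-06), and Sesn2 fell as above. Dram1, a lysosomal membrane protein linked to autophagy, rose: it had 73 counts in monocyte-derived microglia against 3 in host microglia, a ratio of 34.3 (95% interval 11.3 to 170.4).

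Among secreted, surface and other targets, 9 of 14 tested fell and 1 rose, against the same 15.1% of all genes each way. Ak1, an adenylate kinase, measured 6.92, 5.79, 10.5 and 7.98 CPM in monocyte-derived microglia, against 89.5, 93.7, 96.5 and 119.9 CPM in host microglia. The libraries of these groups did not overlap (log2 fold change -3.65 ± 0.231, adjusted p = 5.17e-15, edgeR). Tgfa, a ligand of the EGF receptor, averaged 8.03 ± 2.12 against 35.6 ± 1.58 CPM in host microglia (-2.13 ± 0.267, adjusted p = 6.96e-08), and the long non-coding RNA Pvt1 averaged 14.7 ± 3.27 against 44.1 ± 4.09 CPM. Pltp, the phospholipid transfer protein, rose to 90.9 ± 22.5 CPM, against 4.98 ± 1.58 CPM in host microglia (4.11 ± 0.296, adjusted p = 2e-11).

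Of 10 tested apoptosis targets besides the members, 3 rose (Pmaip1, Trp53i11 and Fas) and 2 fell (Aen and Bid) in monocyte-derived microglia, where 15.1% of all genes passed each way. Pmaip1, which encodes the BH3-only protein NOXA, averaged 12.3 ± 2.83 against 5.51 ± 0.789 CPM in host microglia (log2 fold change 1.12 ± 0.321, adjusted p = 0.00692, edgeR), opposite to Bbc3. Aen, a nuclease, averaged 2.13 ± 2.35 against 8.93 ± 1.31 CPM in host microglia (-2.09 ± 0.609, adjusted p = 0.00824). Its highest donor-derived library was at 6.59 CPM, where the low-count filter asked for 8.51 CPM before TMM scaling. Aen therefore entered the tests through host libraries alone, and its presence among the tested genes depends on the host level. Of 7 tested repair and nucleotide supply targets, 0 were called by edgeR and 2 had an unadjusted p under 0.05 (Polk, -0.68 ± 0.3, and Rrm2b, 0.54 ± 0.252); without the shallow libraries 1 rose and 1 fell. Of 5 tested arrest targets besides Cdkn1a, Cdkn1c fell alone.

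**Figure D4:**
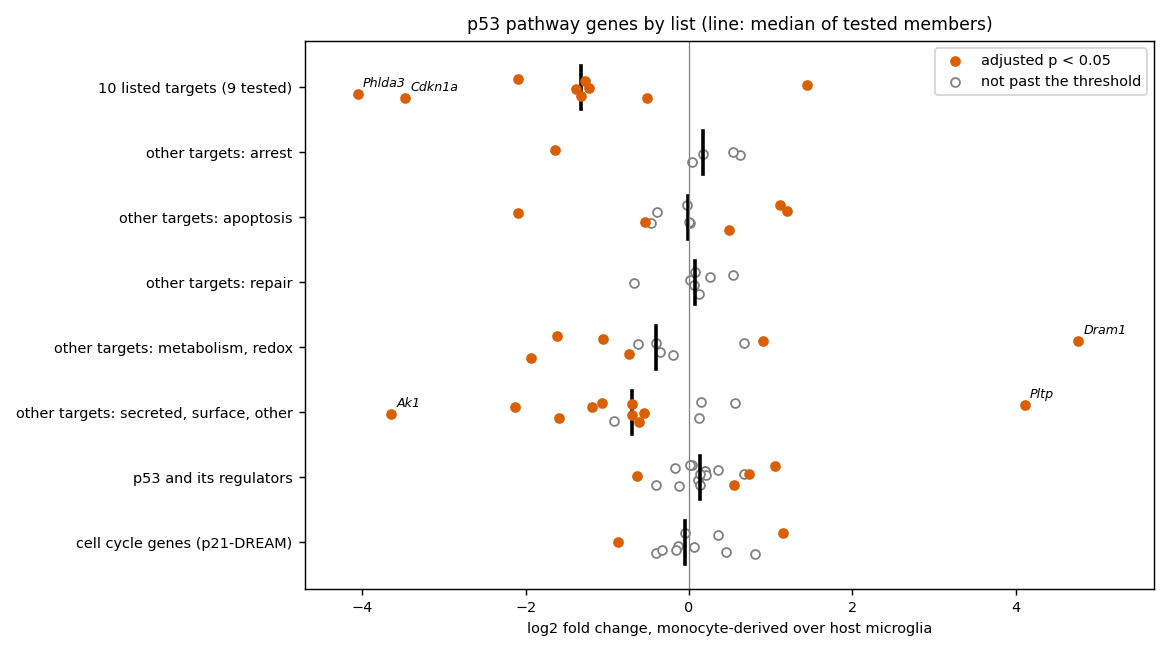
Log2 fold change of monocyte-derived over host microglia for each tested gene of the p53 lists (1 row per list); filled points passed the adjusted threshold of 0.05, open points did not, and the vertical bar is the median of the list. The 9 tested members have their median at -1.32, while the other target groups spread on both sides of 0, from Ak1 at -3.65 to Pltp at 4.11 and Dram1, which rests on 3 host counts.

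Transcripts of p53 itself and of its regulators were mostly not called. Trp53 averaged 17.7 ± 2.89 CPM in monocyte-derived microglia against 27.5 ± 7.98 CPM in host microglia, where replicate 4 stood at 16.1 CPM, within the donor range (log2 fold change -0.64 ± 0.231, adjusted p = 0.0334, edgeR). It was not called in HSC-derived microglia (23.5 ± 6.56 CPM, adjusted p = 0.631) or in either leptomeningeal group with all libraries. HSC-derived leptomeningeal macrophages over host microglia gave -0.79 ± 0.472 for Trp53. Without the shallow libraries the value was -1.41, which rests on 1 library of that group. Of the 17 tested genes of this list, 3 rose in monocyte-derived microglia: Hipk2, a kinase of p53 (1.05 ± 0.292, adjusted p = 0.00537), Sirt1, a deacetylase (0.74 ± 0.229, adjusted p = 0.0123), and Atr, a damage kinase (0.55 ± 0.18, adjusted p = 0.0179). Without the shallow libraries 4 rose and 2 fell. Over all genes 15.1% were called each way.

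Inhibitors of cyclin-dependent kinases did not move as a family. In monocyte-derived over host microglia, Cdkn1a, Cdkn2a, Cdkn1c and Cdkn2d fell and Cdkn1b and Cdkn2c rose, of 6 tested, beside 15.1% of all genes each way. Cdkn2c rested on 10 counts in host microglia. Its highest host library was at 2.01 CPM, where the low-count filter asked for 8.51 CPM before TMM scaling. Cdkn2c therefore entered the tests through donor-derived libraries alone. Cdkn2a, whose products p16 and p19Arf restrain CDK4/6 and MDM2 in mice, measured 5.76, 5.79, 2.10 and 1.60 CPM in monocyte-derived microglia, against 21.5, 34.6, 17.6 and 22.8 CPM in host microglia (log2 fold change -2.60 ± 0.345, adjusted p = 2.48e-07, edgeR). It averaged 9.15 ± 3.63 CPM in HSC-derived microglia (-1.20 ± 0.381, adjusted p = 0.016, and -1.02 with adjusted p = 0.0557 without the shallow libraries) and had no count in HSC-derived leptomeningeal macrophages, at least 5.68-fold lower than in host microglia with a floor of 3 counts over the group. Cdkn1b, which encodes p27, measured 54.8, 48.8, 51.8 and 51.9 CPM in monocyte-derived microglia, against 20.0, 20.0, 22.1 and 30.1 CPM in host microglia (1.18 ± 0.2, adjusted p = 1.58e-05).

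Cell cycle genes that p21 represses through the DREAM complex were mostly not called in monocyte-derived microglia. In monocyte-derived over host microglia, 1 of 11 tested rose (Ezh2) and 1 fell (Tyms), with a median log2 fold change of -0.05, where 15.1% of all genes were called each way. Pcna, the sliding clamp of DNA replication, averaged 67.3 ± 8.94 CPM in monocyte-derived and 64.9 ± 6.98 CPM in host microglia (adjusted p = 0.817, edgeR). In HSC-derived microglia 4 rose (Mki67, Pcna, Top2a and Ezh2) and none fell, with and without the shallow libraries, where 16.3% of all genes were higher. In monocyte-derived leptomeningeal macrophages 8 rose and none fell, where 24.1% of all genes were higher. Blood cell markers moved with these counts: in monocyte-derived leptomeningeal macrophages the summed levels given above compare with host levels of 228.4 to 376.1 CPM for neutrophils (6 of 8 markers at 0 in the group) and 30.1 to 54.2 CPM for T and NK cells. Their part in the counts was not tested. Pcna averaged 103.2 ± 16.4 CPM in HSC-derived microglia and 122.7 ± 1.87 CPM in monocyte-derived leptomeningeal macrophages, with log2 fold changes over host microglia of 0.62 ± 0.163 (adjusted p = 0.00379) and 0.93 ± 0.139 (adjusted p = 9.14e-07).

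The BCL2 family around Bbc3 and Bax held both directions. Of 15 tested members, 5 rose and 5 fell in monocyte-derived over host microglia, where 15.1% of all genes were called each way. Besides Bbc3 and Bax, Bmf, another BH3-only gene, averaged 38.9 ± 8.01 against 95.1 ± 23.2 CPM in host microglia (log2 fold change -1.32 ± 0.189, adjusted p = 1.01e-06, edgeR), and Bcl2l2, an anti-apoptotic member, averaged 18.5 ± 1.59 against 7.78 ± 1.11 CPM (1.25 ± 0.24, adjusted p = 9.47e-05). Bcl2a1b and Bcl2a1d, which are near-identical copies and so uncertain, also rose. Phlda1, a relative of Phlda3, rose to 15.9 ± 6.4 CPM, against 8.53 ± 1.17 CPM in host microglia (0.92 ± 0.348, adjusted p = 0.0456).

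Receptors related to Eda2r and senescence-linked genes also held both directions. Of 5 tested TNF receptor genes, Tnfrsf11a, which encodes RANK, and Fas rose in monocyte-derived over host microglia, while Tnfrsf1a and Tnfrsf1b fell, beside 15.1% of all genes in each direction. Tnfrsf11a averaged 165.4 ± 16.1 against 47.6 ± 1.86 CPM in host microglia (log2 fold change 1.79 ± 0.147, adjusted p = 4.58e-12, edgeR). Of 16 tested senescence-linked genes, 4 rose (Cxcl16, Ccl8, Il1b and Timp2) and 4 fell (Cdkn2a, Il6, Il1a and Tnf); without the shallow libraries 7 rose and 5 fell. The share of all genes called was 30.2%, or 15.1% each way. Cxcl16, a membrane-bound chemokine, averaged 391.5 ± 36.4 against 106.2 ± 8.89 CPM, and Il1b averaged 222.7 ± 50.7 against 24.7 ± 4.87 CPM in host microglia. Ccl8, a chemokine, had 153 counts in monocyte-derived microglia against 2 in host microglia.

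The genes whose pattern over the 18 libraries was most like that of Cdkn1a, among 6182 genes with a mean of at least 20 CPM, were Akt1 (Pearson r = 0.896), Irf5 (0.89), Nbeal2 (0.889), Grap (0.886) and Itgb2 (0.874). Akt1 averaged 107.2 ± 3.49 CPM in monocyte-derived microglia and 119.9 ± 8.91 CPM in monocyte-derived leptomeningeal macrophages, against 146.6 ± 8.11 CPM in host microglia. The genes most like Sesn1 were Fam214a (r = 0.92), Mpeg1 (0.912), Ifnar2 (0.911), Rasa1 (0.907) and Herc4 (0.905). Fam214a averaged 158.9 ± 11.8 CPM in monocyte-derived microglia, 127.9 ± 40.9 CPM in HSC-derived microglia and 59.9 ± 12.5 CPM in monocyte-derived leptomeningeal macrophages, against 17.1 ± 1.63 CPM in host microglia. These correlations describe libraries that fall into groups and share depth and scaling.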

How the data were processed

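The measured values are the authors' deposited UMI counts from bulk MARS-seq, a method that counts 3′ ends of polyadenylated RNA with unique molecular identifiers. Up to 100000 cells were sorted per library, with actinomycin D in all preparations, per the labels' protocols. Build mm10 is given in the submitters' processing notes, with the aligner and counting rules not given in the sources used here. Of 20 columns of deposited counts, 2 matched no described sample and were not used, and scaled versions were left aside.

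Genes were filtered with filterByExpr (10597 of 13043 kept) and libraries scaled by TMM. All 18 libraries entered 1 edgeR 4.0.16 quasi-likelihood fit (R 4.3.3) with a coefficient per group, two-sided tests and Benjamini-Hochberg adjustment over all tested genes, at a threshold of 0.05. SE is the log2 fold change over the root of F. Means carry SDs over libraries. Ratios on 1 to 3 counts carry exact (Clopper-Pearson) intervals. Replicates differed beyond sampling noise (chi-square per degree of freedom 1.43 to 11.2). The fit was tested on simulated data. Alternatives covered scaling, filters, depth, limma-voom (limma 3.58.1), DESeq2 1.42.0, the replicate block and leaving out each library. Gene positions and overlaps come from GENCODE vM21.

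The members and gene lists were chosen with earlier results of these data known. Named genes were all members, up to 4 genes of each list with the smallest p in monocyte-derived over host microglia, any gene that a count of 5 or fewer covers, 3 markers per cell type, and the 5 genes most like Cdkn1a and Sesn1 (log2 CPM, prior count 2). Some marker results are not reported here.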

Additional observations from a re-analysis of the deposited data

Results flagged for a closer look

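By Dixon's criterion of 0.829, chance sets a library apart in about 1 in 20 sets of normally distributed values. That rate does not hold for low counts, and where the other libraries are at 0 any count stands apart. In 38 sets of 4 libraries (a p53 target in a group), 6 held a library apart from the other 3. In donor-derived groups these were Phlda3 in HSC-derived microglia replicate 1 (2.83 CPM, the others at 0), Phlda3 in monocyte-derived leptomeningeal replicate 3 (1.91 CPM, lower), Zmat3 in HSC-derived microglia replicate 3 (20.5 CPM from 4 counts in a shallow library) and Eda2r in monocyte-derived leptomeningeal replicate 4 (1.35 CPM from 2 counts, the others at 0). In host microglia they were Zmat3 in replicate 4 (16.7 CPM from 25 counts) and Eda2r in replicate 3 (5.27 CPM from 15 counts). Without HSC-derived microglia replicate 3, Zmat3 passed in HSC-derived over host microglia (log2 fold change -2.06, adjusted p = 0.022, edgeR).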

How the results depend on the processing

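Of 945 repeats of the 33 called gene results, 915 kept their direction and call, 29 lost the call and 1 reversed: Mdm2 in monocyte-derived over host microglia gave 0.04 after thinning to the shallowest library. Thinning left 4266 genes and 5 members tested; 4 members were then called in monocyte-derived microglia, 3 in monocyte-derived leptomeningeal and 3 in HSC-derived leptomeningeal macrophages, each over host microglia. For HSC-derived leptomeningeal macrophages over HSC-derived microglia, 2 members were called without shallow libraries and 0 when only these groups were fitted (5 members tested). Leaving out 1 library at a time gave 7 to 9 called members in monocyte-derived microglia, 6 to 7 in HSC-derived microglia, 8 to 9 in monocyte-derived and 5 to 6 in HSC-derived leptomeningeal macrophages, each over host microglia, 2 to 3 for monocyte-derived leptomeningeal macrophages over microglia, and 0 to 2 for HSC-derived ones. Of 1355 repeats of the 48 uncalled member results, 18 were called, none of them with the other sign. With the replicate number as a block, counts of called members were 9, 6, 9 and 6 over host microglia in the same order, and none changed. The labels do not say whether same-numbered libraries came from the same mice. Of 32 same-numbered pairs, 1 correlated over 0.1 (median r -0.00027), and 7 of 18 libraries correlated best with their own number. Low correlations of deviations from group means cannot decide whether mice were shared, because a shared part may be small beside the spread between libraries. Over all genes, thinning lowered the called count to 754 against 3201 for monocyte-derived and 1082 against 3114 for HSC-derived microglia, and to 1511 against 4941 for monocyte-derived and 1555 against 3563 for HSC-derived leptomeningeal macrophages, each over host microglia. For monocyte-derived over HSC-derived microglia the count was 200 as reported, 552 with DESeq2, 83 with limma-voom, 50 without shallow libraries and 20 when only these groups were fitted. For the same origins in leptomeninges it was 32 as reported, 70 with DESeq2 and 72 without shallow libraries, and for the interaction of origin with compartment it was 6 as reported and 49 with DESeq2. Phlda3, Zmat3 and Eda2r are limited by counts in donor-derived libraries. The causes of lost calls were not tested.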
